A study of Rattus norvegicus with 22 samples.

Results

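Lung tissue taken 18 h after severe microsphere pulmonary embolism (PE) was compared with lung tissue taken 2 h after the same injury, using the 8 Severe PE arrays of a series of 22 rat arrays, 1 array per rat. The members were the 4 rats labelled 18 hour PE2.0 (18-h Severe PE) and the 4 labelled 2 hour PE2.0 (2-h Severe PE). Severe PE rats received 2000000 polystyrene microspheres of 25 micron per 100 g body weight, in 0.15 ml per 100 g of a 10% suspension in 0.01% Tween 20, through the right jugular vein. Vehicle rats (3 at 2 h and 3 at 18 h) received the same volume of 0.01% Tween 20 without microspheres, and Mild PE rats (4 and 4) received 1300000 microspheres in 0.10 ml per 100 g. All groups were anesthetized adult male rats of approximately 350 g, and all lungs were lavaged with 8 ml of saline before they were excised. The microspheres lodge in small lung vessels and stay there, so the model has fixed occlusion without a dissolving clot. Each difference below is 18 h minus 2 h on the log2 scale of normalised array signal, on which 4 is the floor and a difference of 1 is a 2-fold ratio. A gene was called when its Benjamini-Hochberg adjusted p (limma) was under 0.05 and its group means differed at least 1.5-fold. For many lists and genes the same difference in Vehicle lungs stands beside it. Time since injection and anesthesia also separates the 2 times, and the hour of tissue collection may. Where no Vehicle value is given, a call alone does not show a departure from Vehicle.

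An occluded pulmonary artery deprives the lung behind it of blood flow and exposes the remaining vessels to raised pressure and shear. Injured lung responds first with immediate early transcription factors and heat shock proteins, and later with recruited neutrophils and macrophages and with acute phase proteins, which bind pathogens, iron and proteases in plasma and airway fluid. Secretory and dividing cells need sterols for membranes, chaperones for protein folding in the endoplasmic reticulum (ER) and new ribosomes. Xenobiotic-metabolising enzymes of airway cells, the extracellular matrix and the capillary endothelium are features of the resting lung.

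The label of the tissue matched its markers: Sftpc, which encodes surfactant protein C of alveolar type II cells, lay between 14.38 and 14.76 in the 8 Severe PE lungs, and Ager, a marker of alveolar type I cells, between 13.52 and 14.07. The array of 2-h Severe PE rat 1 stood apart in RNA quality, with a 3′ minus 5′ log2 signal for Gapdh of 0.52, whereas the median of its group was 0.22. Outside Severe PE, 18-h Vehicle rat 1 (0.64), 18-h Mild PE rat 4 (0.49) and 2-h Vehicle rat 3 (0.35) also had high values, and those 3 arrays enter the Vehicle and Mild PE values set beside the results. Correlations between arrays were 0.961 to 0.98 within 2-h Severe PE, 0.971 to 0.976 within 18-h Severe PE and 0.948 to 0.967 between the groups.

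Between 2 h and 18 h of Severe PE, 1956 of 31042 probe sets were called (6.3%), 1029 of them higher and 927 lower at 18 h. Which direction held more calls depended on the scaling, with 1421 higher and 873 lower after median centring and 933 higher and 1127 lower without further normalization. In Vehicle lungs, 3 rats against 3, 5 probe sets were called (0.0161%), 2 higher and 3 lower. With median centring they were 0 and 2, and without further normalization 0 and 7. At an unadjusted p (limma) under 0.05 there were 4815 in Vehicle and 7291 in Severe PE, and 5849 and 5597 differed at least 1.5-fold. With 1 fit on all 22 arrays the calls were 833 and 3021. The smaller groups limit what can pass, so few calls do not show that Vehicle lungs were unchanged. The Severe PE difference itself departed from the Vehicle difference for 1778 probe sets (5.73%), 773 in the positive and 1005 in the negative direction, and from the Mild PE difference for 25 (0.0805%), 8 positive and 17 negative (3 and 12 with median centring). Taking each of 14217 genes by its brightest probe set, 691 were higher (4.86%) and 536 lower (3.77%) at 18 h. The counts of called members in the gene lists below are to be read against these shares. The differences reached 2-fold for 258 of the higher and 275 of the lower genes, and 4-fold for 30 and 37. Not every probe set was called for Abca1, Car4, Cish, Cldn11, Gucy1a1, Hlf, Il1a, Mars1, Myh6, Myl2, Mylk, Nr4a3, Sec61a1, Slc11a2, Tef, Tnnt2, Txnrd1, Vegfa and Vldlr, whose values are those of the brightest, and the second Tnnt2 probe set had 0.12. Of the 1227 called genes, 1226 had no overlap between the 4 rats of each group, as did 3210 of all 14217 genes. The number of called probe sets depended on single rats: it was 1069 without 18-h rat 3, 1123 without 18-h rat 2, 1203 without 2-h rat 4, 1240 without 2-h rat 3 and 1293 without 2-h rat 2, and 1986 without 2-h rat 1. The count against Vehicle was 3085 without 2-h Severe PE rat 1, that against Mild PE was 53 when that rat was left out, 42 when 18-h Mild PE rat 4 was and 14 when 2-h Mild PE rat 2 was, and the Vehicle count was 1 without 2-h Vehicle rat 3 and 0 without any other Vehicle rat.

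**Figure D1:**
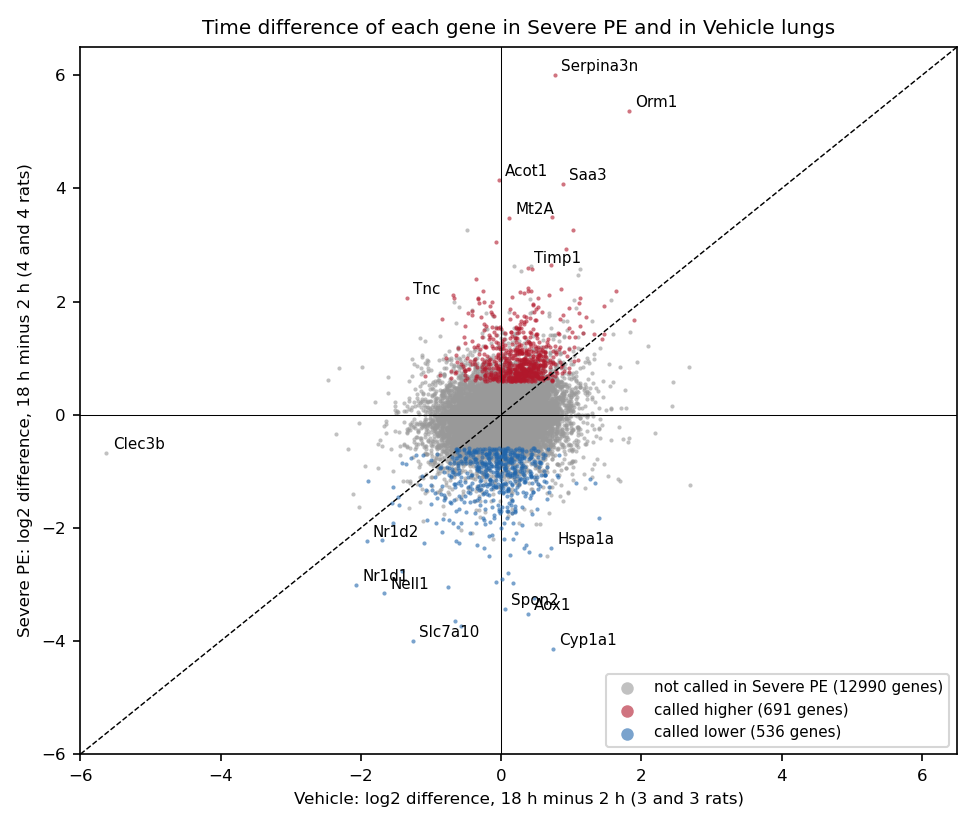
Each point is 1 of 14217 genes, with its log2 difference between 18 h and 2 h in Vehicle lungs on the horizontal axis and in Severe PE lungs on the vertical axis. Red points are the 691 genes called higher and blue points the 536 called lower in Severe PE, and the dashed line marks equal differences. Orm1 (5.37) and Serpina3n (6.0) lie at the top, Cyp1a1 (-4.14) at the bottom, Nr1d1 and Nr1d2 near the dashed line, and Clec3b far to the left at -5.63 in Vehicle.

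The largest rises were in acute phase genes, of which 10 of 23 measured were higher and 0 lower. The median difference of the list was 1.17, against 0.01 for all genes and 0.24 for the list in Vehicle lungs, and 8 members rose more than in Vehicle. Serpina3n, an inhibitor of serine proteases, measured 6.66, 6.27, 6.12 and 6.44 in the 2-h rats and 13.81, 11.09, 11.11 and 13.47 in the 18-h rats. The groups did not overlap, and 18-h rats 1 and 4 lay above rats 2 and 3. The difference was 6.0 (SE 0.70, adjusted p 0.0065), beside 0.77 (adjusted p 0.727) in Vehicle. Orm1, the plasma acid glycoprotein, measured 5.57, 5.78, 5.15 and 5.10 at 2 h and 11.01, 10.54, 10.10 and 11.42 at 18 h. Its difference of 5.37 (SE 0.31, adjusted p 0.0016) stood beside 1.82 (adjusted p 0.162) in Vehicle. All 3 Vehicle rats at 18 h (6.72, 7.23 and 6.87) were above all 3 at 2 h (5.11, 4.95 and 5.30). The Severe PE difference departed from that of Vehicle by 3.55 (adjusted p 0.000762).

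Saa3, an inducible serum amyloid made by macrophages and epithelium, measured 8.02, 7.86, 6.16 and 6.07 at 2 h and 11.45, 10.69, 10.73 and 11.53 at 18 h. The 2-h rats fell into a higher and a lower pair, and all 18-h rats were above both. The difference was 4.07 (SE 0.54, adjusted p 0.0086). Reg3b, a secreted antibacterial lectin, rose by 3.27 (SE 0.39, adjusted p 0.0069), with 2-h rat 3 at the floor. Itih4, a plasma protein, rose by 2.11 (SE 0.24, adjusted p 0.00646). Lcn2, which captures bacterial iron carriers, was already bright at 2 h (12.76 to 13.49) and measured 14.68 to 14.79 at 18 h, a difference of 1.57 (SE 0.16, adjusted p 0.00448). In the 4 Mild PE rats of each time the differences of the same genes were 4.86 for Serpina3n, 3.12 for Orm1, 1.98 for Saa3 and 1.64 for Lcn2. None of these departed from the Severe PE difference under the call rule.

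**Figure D2:**
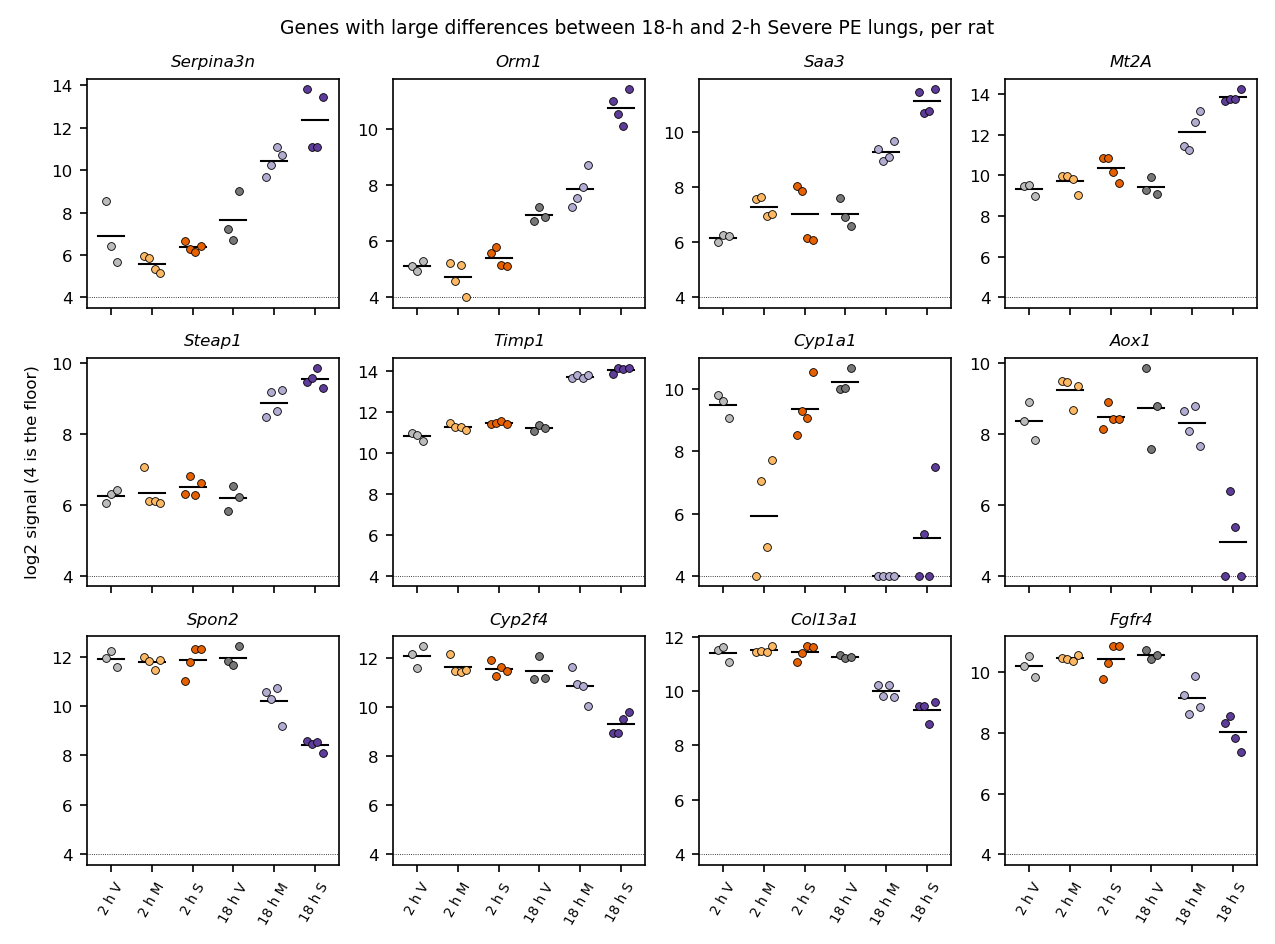
Normalised log2 signal of 12 genes in every rat of the 6 groups (V, Vehicle; M, Mild PE; S, Severe PE), with bars at the group means. For Serpina3n, Orm1, Saa3, Mt2A, Steap1 and Timp1 the 18-h Severe PE rats lie above the 2-h Severe PE rats, from 11.09 to 13.81 for Serpina3n and 13.89 to 14.17 for Timp1. In the panels of the other genes they lie below them.

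Of 16 genes that bind, reduce and carry metal, 9 were higher and 0 lower at 18 h, with a median of 1.09 (0.05 in Vehicle), and all 9 calls against Vehicle were in the same direction. Mt2A, a metallothionein that binds zinc and copper, measured 10.86, 10.83, 10.16 and 9.63 at 2 h and 13.64, 13.74, 13.76 and 14.22 at 18 h. The 18-h rats were all above the 2-h rats, and Vehicle rats measured between 8.96 and 9.91 at both times. The Mt2A difference was 3.47 (SE 0.30, adjusted p 0.00307). Steap1, a membrane protein of a family that reduces iron and copper, measured 6.31, 6.82, 6.27 and 6.61 at 2 h and 9.47, 9.59, 9.87 and 9.30 at 18 h, a difference of 3.05 (SE 0.17, adjusted p 0.0015) beside -0.07 (adjusted p 0.927) in Vehicle. Its relative Steap2 rose by 1.94 (SE 0.15, adjusted p 0.00257). The zinc importer Slc39a14 and the iron transporter Slc11a2 rose by 1.18 (adjusted p 0.00506) and 0.99 (adjusted p 0.00712). Sod2, the mitochondrial superoxide dismutase, rose by 1.79 (SE 0.23, adjusted p 0.0083), and Sod3, the extracellular one, fell by 1.34 (SE 0.20, adjusted p 0.0124). Txnrd1, thioredoxin reductase, rose by 0.63 (adjusted p 0.0211) and lost its call in 4 of 8 runs with 1 rat left out.

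Metallothionein genes are known to be switched on through metal response elements, so the promoter of Mt2A is shown for the core of that element. The RefSeq window of Mt2A (build GRCr8, chr19:10838659-10838958, minus strand, from 250 bases before to 50 after the start site) holds 4 copies of the core, searched as TGCACNC and TGCGCNC on both strands and printed in capitals. The core was found for 3 of 3 metallothioneins with a window and for 7229 of 27457 genes (26.3%) in all.
Mt2A: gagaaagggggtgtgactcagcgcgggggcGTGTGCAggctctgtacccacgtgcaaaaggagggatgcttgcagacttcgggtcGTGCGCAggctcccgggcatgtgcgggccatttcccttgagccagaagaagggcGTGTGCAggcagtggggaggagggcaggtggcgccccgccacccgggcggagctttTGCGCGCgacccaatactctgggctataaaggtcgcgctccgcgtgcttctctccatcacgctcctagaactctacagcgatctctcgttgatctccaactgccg

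Other large rises came from genes of varied function. Acot1, a cytosolic acyl-CoA thioesterase of fatty acid metabolism, measured 7.12, 5.17, 6.09 and 7.90 at 2 h and 10.88, 11.15, 10.20 and 10.60 at 18 h. The groups were apart by more than 2 log2 units, but 1 of the 3 Vehicle rats at 18 h also reached 10.18. The difference was 4.14 (SE 0.59, adjusted p 0.0108), beside -0.03 in Vehicle and 0.83 in Mild PE. Its departure from Mild PE was not called (adjusted p 0.271). The 2-h mean of Acot1 was 6.57 in Severe PE, 7.92 in Vehicle and 8.62 in Mild PE, and the 18-h means were 10.71, 7.88 and 9.45. Aldh1l2, a mitochondrial enzyme of folate metabolism, was at the floor in 2 of the 4 2-h rats and measured 8.24 to 8.81 at 18 h (3.50, SE 0.61, adjusted p 0.0196). Slc26a4, an anion exchanger of epithelia, rose by 2.57 (SE 0.30, adjusted p 0.00641). Angptl4, a secreted inhibitor of lipoprotein lipase, measured 9.87 to 10.25 at 2 h and 12.02 to 12.41 at 18 h, a difference of 2.18 (SE 0.12, adjusted p 0.0015). Mro rose by 2.93 (adjusted p 0.00835) and Mfsd10, a membrane transporter, by 2.64 (adjusted p 0.0444). Their Vehicle differences were 0.92 and 0.71, and neither departure from Vehicle was called (adjusted p 0.057 and 0.33). With 1 rat left out Mfsd10 lost its call in 7 of 8 runs (adjusted p up to 0.102) and Aldh1l2 in 2 (up to 0.0576).

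Cholesterol synthesis enzymes were higher at 18 h for 9 of 17 measured and lower for 0, with a median of 0.93 beside 0.01 in Vehicle, and 16 of 17 had a positive difference. Hsd17b7, a ketoreductase of the late pathway, measured 8.0, 7.54, 7.61 and 8.03 at 2 h and 9.48, 9.58, 9.71 and 9.45 at 18 h. These groups were more than 1 log2 unit apart. The difference was 1.76 (SE 0.14, adjusted p 0.00257), beside -0.41 (adjusted p 0.621) in Vehicle. Fdft1, squalene synthase, measured 9.60 to 9.92 at 2 h and 10.57 to 11.04 at 18 h (1.08, SE 0.11, adjusted p 0.00506). Cyp51, lanosterol demethylase, rose by 1.0 (adjusted p 0.00789), Fdps, farnesyl diphosphate synthase, by 0.97 (adjusted p 0.00673) and Msmo1, a sterol oxidase, by 0.93 (adjusted p 0.00395). The summed linear signal of the 17 enzymes was 13076 to 13929 in the 2-h and 24163 to 25615 in the 18-h Severe PE rats, and 13098 to 14030 in the 6 Vehicle rats of both times. Genes of sterol uptake and efflux moved in both directions, 2 higher and 4 lower of 21, beside 4.86% and 3.77% of all genes. Abca1, which exports cholesterol, fell by 0.92 (SE 0.08, adjusted p 0.00305), Vldlr, a lipoprotein receptor, by 1.22 (SE 0.12, adjusted p 0.00406) and Cyp27a1, which makes 27-hydroxycholesterol, by 1.18 (SE 0.22, adjusted p 0.0231). Insig1, a sterol sensor, rose by 0.78 (SE 0.15, adjusted p 0.0267). Cyp27a1 and Insig1 lost their calls in 6 and 7 of the 8 runs with 1 rat left out, and in those runs the sterol transport list had 0 to 2 called rises and 2 to 5 called falls, with 0 rises without 2-h rat 2 or 4 or any 18-h rat and 2 falls without 2-h rat 2, 3 or 4 or 18-h rat 2, 3 or 4.

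ER chaperones and their regulators were higher for 12 of 29 and lower for 0, with a median of 0.69 beside -0.01 in Vehicle. Sdf2l1, a resident ER chaperone named after its values were seen, measured 10.74, 11.60, 11.38 and 11.14 at 2 h and 13.30, 12.97, 13.02 and 13.01 at 18 h. The lowest 18-h rat was more than 1 log2 unit above the highest 2-h rat. The difference was 1.86 (SE 0.19, adjusted p 0.00453), beside 0.50 (adjusted p 0.275) in Vehicle. Dnajb11, a cochaperone, measured 9.60 to 9.92 at 2 h and 11.11 to 11.44 at 18 h (1.51, SE 0.10, adjusted p 0.00208), and the Vehicle rats 9.58 to 9.83. Creld2 rose by 1.47 (SE 0.13, adjusted p 0.00309), the translocon subunit Sec61a1 by 0.82 (SE 0.06, adjusted p 0.00229) and the disulfide isomerase Pdia6 by 0.76 (SE 0.06, adjusted p 0.00257). Sec61a1 had 0.39 in Vehicle, and its departure from Vehicle was not called (adjusted p 0.113). Hspa5, the main ER chaperone, named here after its values were seen, measured 12.11 to 13.23 at 2 h and 13.46 to 13.82 at 18 h, and its difference of 0.97 (SE 0.26, adjusted p 0.0654) did not pass the test.

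Genes of this group are known to share the ER stress response element, CCAAT followed after 9 bases by CCACG. It was found, on either strand, in the window of 7 of the 22 members that have one and of 21 of 27457 genes in all (0.0765%). The 7 were Calr, Canx, Creld2, Dnajc3, Hsp90b1, Hspa5 and Xbp1. Calr, a calcium-binding chaperone, Creld2 and Dnajc3, a cochaperone, were called higher, and their promoters are shown with the element in capitals. Calr rose by 0.84 (SE 0.10, adjusted p 0.00758) and Dnajc3 by 1.08 (SE 0.20, adjusted p 0.0223). Dnajc3 lost its call in 6 of 8 runs with 1 rat left out (adjusted p up to 0.0617), and both were named after their values were seen. Sdf2l1 and Dnajb11 have no such run of letters in their windows. The windows (GRCr8, plus strand) are chr7:121789134-121789433 for Creld2, chr19:40213117-40213416 for Calr and chr15:102432417-102432716 for Dnajc3.
Creld2: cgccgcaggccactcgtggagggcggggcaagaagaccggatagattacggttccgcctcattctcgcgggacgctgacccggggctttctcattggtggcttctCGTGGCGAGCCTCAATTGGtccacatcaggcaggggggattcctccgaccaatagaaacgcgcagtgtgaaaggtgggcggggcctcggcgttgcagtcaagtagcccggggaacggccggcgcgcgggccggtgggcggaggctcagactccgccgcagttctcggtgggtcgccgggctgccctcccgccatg
Calr: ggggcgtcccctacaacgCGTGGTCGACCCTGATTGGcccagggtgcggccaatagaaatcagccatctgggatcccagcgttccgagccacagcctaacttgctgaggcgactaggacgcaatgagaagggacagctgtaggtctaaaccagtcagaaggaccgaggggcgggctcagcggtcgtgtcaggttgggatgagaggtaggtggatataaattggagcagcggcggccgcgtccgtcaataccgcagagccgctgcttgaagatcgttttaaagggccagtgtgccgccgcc
Dnajc3: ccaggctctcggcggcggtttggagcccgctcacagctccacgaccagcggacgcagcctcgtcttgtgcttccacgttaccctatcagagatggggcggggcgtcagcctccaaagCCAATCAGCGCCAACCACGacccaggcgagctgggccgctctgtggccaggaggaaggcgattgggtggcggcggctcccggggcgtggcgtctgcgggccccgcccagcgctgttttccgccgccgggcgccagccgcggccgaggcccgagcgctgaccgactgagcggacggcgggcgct

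Amino acid supply and tRNA charging genes, many of them targets of the stress factor ATF4, were higher for 15 of 33 and lower for 1, with a median of 0.57 (0.10 in Vehicle). Yars1, tyrosyl-tRNA synthetase, measured 10.77 to 11.01 at 2 h and 11.90 to 12.21 at 18 h, a difference of 1.11 (SE 0.09, adjusted p 0.0026). Slc7a5, a transporter of large neutral amino acids, rose by 1.23 (SE 0.12, adjusted p 0.00451) and Asns, asparagine synthetase, by 0.88 (SE 0.09, adjusted p 0.00453). The synthetases Gars1 and Mars1 rose by 0.98 (adjusted p 0.00543) and 0.76 (adjusted p 0.0076). The gene that fell was Vegfa, which is described with the vascular genes.

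Ribosome biogenesis factors were higher for 16 of 36 and lower for 0, with a median of 0.65 beside 0.02 in Vehicle and 0.62 in Mild PE. Nhp2, a protein of the complexes that modify ribosomal RNA, measured 10.79, 10.98, 11.04 and 10.96 at 2 h and 12.23, 12.43, 12.53 and 12.04 at 18 h (1.37, SE 0.12, adjusted p 0.00298). The nucleolar proteins Rrp12, Fbl, Nop2 and Mybbp1a rose by 1.43 (adjusted p 0.003), 1.18 (adjusted p 0.00406), 1.13 (adjusted p 0.00496) and 1.03 (adjusted p 0.0037). The count of called biogenesis factors was 9 without 18-h rat 3 and 10 without 18-h rat 2, 2-h rat 3 or 2-h rat 4. Of 24 translation initiation factors 7 were higher and 0 lower, among them Eif4a1, an RNA helicase (1.0, SE 0.11, adjusted p 0.00641), and Eif3b (0.66, SE 0.06, adjusted p 0.00435), and the count was 3 without 18-h rat 2 or 18-h rat 3 and 11 when arrays were median centred. The cytosolic ribosomal proteins themselves gave 0 calls of 31 by limma and a median of 0.06, with 6 at an unadjusted p under 0.05 and 1 call without 2-h rat 1. Rpl14 measured 13.61 to 13.71 at 2 h and 13.95 to 14.09 at 18 h, a difference of 0.36 (SE 0.05, adjusted p 0.0105) that was under 1.5-fold. Proteasome subunits were called higher for 3 of 35, beside 4.86% of all genes, with 33 of 35 positive and a median of 0.38 (-0.08 in Vehicle). Their count was 1 without 2-h rat 2, 18-h rat 2 or 18-h rat 3 and 12 with median centring. Psmd14, a deubiquitinase of the proteasome lid, rose by 0.77 (adjusted p 0.014), and Psmd4 by 0.48 (adjusted p 0.00467), under 1.5-fold.

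**Figure D3:**
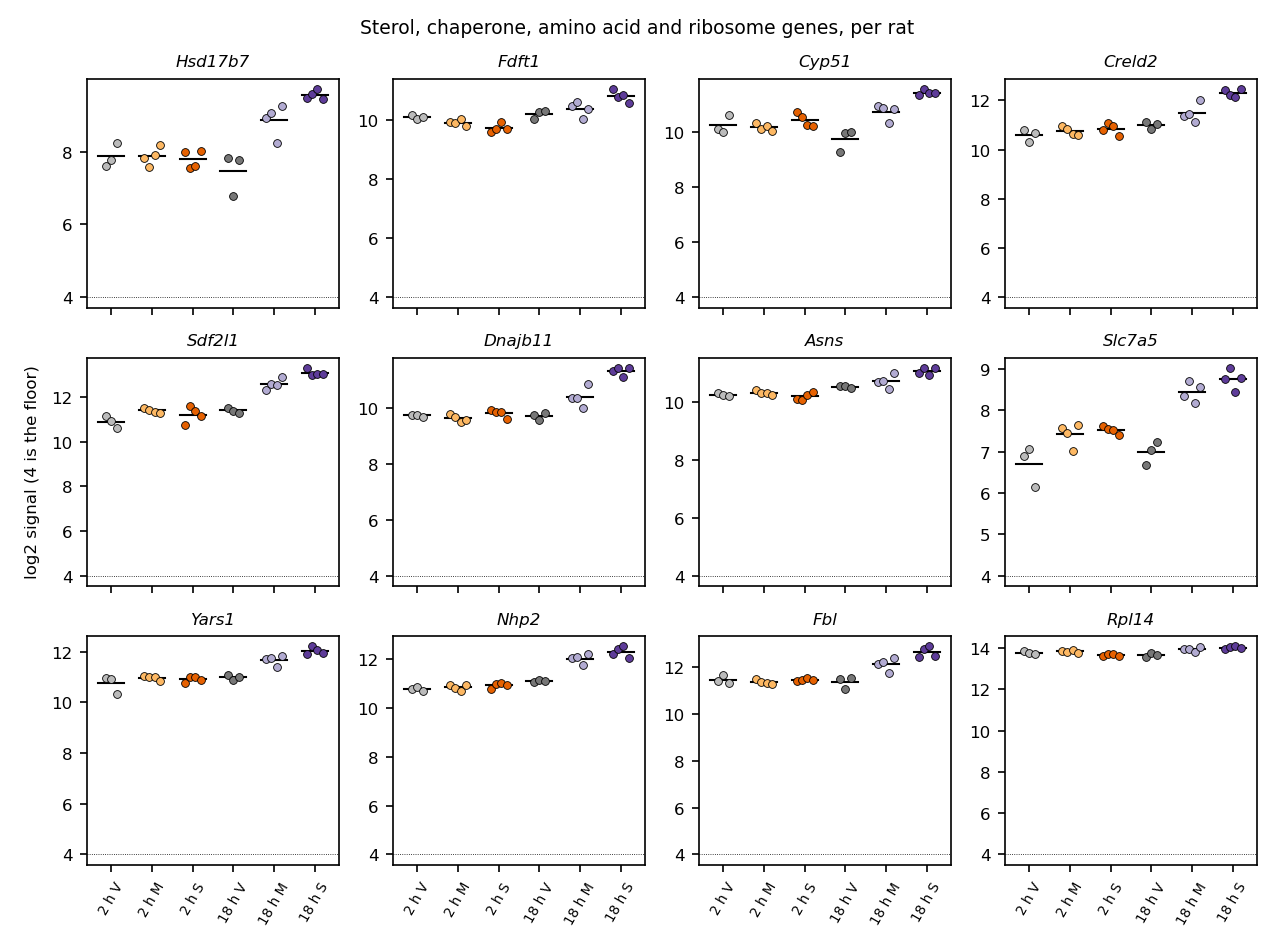
Normalised log2 signal of 12 genes of sterol synthesis, ER folding, amino acid supply and ribosomes in every rat (V, Vehicle; M, Mild PE; S, Severe PE), with bars at the group means. The 18-h Severe PE rats lie above the 5 other groups for Hsd17b7 (9.45 to 9.71) and Sdf2l1 (12.97 to 13.30), and the range of Rpl14 is much narrower, with the 18-h Severe PE rats at 13.95 to 14.09.

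Glycolysis and hypoxia genes were higher for 6 of 30 and lower for 0, with a median of 0.22. Eno1, enolase, measured 12.77 to 13.09 at 2 h and 13.62 to 13.78 at 18 h (0.69, SE 0.09, adjusted p 0.00764), and Ldha, lactate dehydrogenase, rose by 0.81 (SE 0.11, adjusted p 0.00992). Pgam1 had a difference of 0.44 (adjusted p 0.00641), under 1.5-fold. The count in the list fell to 2 or 3 without any 1 of the 4 2-h rats or of 18-h rats 1, 2 and 3. Replication helicase subunits Mcm6, Mcm5 and Mcm7 rose by 1.04 (adjusted p 0.0114), 1.0 (adjusted p 0.0214) and 0.65 (adjusted p 0.021). They were the 3 of 37 cell cycle genes that passed, beside 4.86% of all genes called higher. Mcm5 and Mcm7 lost their calls in 3 and 6 of the 8 runs with 1 rat left out, and the list had 1 call without 2-h rat 2, 18-h rat 2 or 18-h rat 3.

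Of 42 xenobiotic metabolism genes, 12 were lower and 1 higher at 18 h, with a median of -0.44 beside 0.12 in Vehicle. Cyp1a1, a cytochrome induced through the aryl hydrocarbon receptor, measured 8.52, 9.29, 9.07 and 10.56 at 2 h. At 18 h it was at the floor in rats 1 and 3 and measured 5.35 in rat 2 and 7.50 in rat 4. The difference was -4.14 (SE 0.87, adjusted p 0.0341), and all 6 Vehicle rats measured 9.06 to 10.68. In Mild PE its level was already at the floor to 7.71 at 2 h and at the floor in all 4 rats at 18 h. Aox1, aldehyde oxidase, measured 8.14, 8.90, 8.41 and 8.41 at 2 h and, at 18 h, 6.40 and 5.38 in rats 2 and 3 with rats 1 and 4 at the floor (-3.52, SE 0.57, adjusted p 0.0157). Cyp2f4, a cytochrome of club cells in the airway, measured 11.25 to 11.89 at 2 h and 8.93 to 9.78 at 18 h, a difference of -2.27 (SE 0.24, adjusted p 0.00479). Its Vehicle rats ranged from 11.58 to 12.46 at 2 h and 11.14 to 12.07 at 18 h. Gstm7, a glutathione transferase, fell by 1.74 (SE 0.19, adjusted p 0.00568), Cyp2a3 by 1.73 (SE 0.22, adjusted p 0.00788), the flavin monooxygenase Fmo1 by 1.28 (SE 0.17, adjusted p 0.00916) and the monoamine oxidase Maob by 1.24 (SE 0.12, adjusted p 0.00443). Cyp1a1 lost its call in 6 of 8 runs with 1 rat left out (adjusted p up to 0.0842).

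Other large falls were in hormone, transport and junction genes. Hsd11b2, which inactivates glucocorticoids, measured 8.39, 8.64, 9.10 and 9.17 at 2 h and 4.65, 6.01 and 5.70 in 18-h rats 1 to 3, with rat 4 at the floor, a difference of -3.73 (SE 0.47, adjusted p 0.00764). It was 1 of 2 that fell among 21 glucocorticoid-related genes, beside Pck1, a gluconeogenic enzyme (-2.20, SE 0.34, adjusted p 0.0136), and 2 rose, Lcn2 and Angptl4. The list had 6 falls without 18-h rat 4. Slc7a10, a transporter of small neutral amino acids, measured 8.79 to 9.86 at 2 h and from the floor to 5.93 at 18 h (-4.0, SE 0.47, adjusted p 0.00673). Its Vehicle difference was -1.26 (adjusted p 0.225), and the 2 differences departed by -2.73 (adjusted p 0.0109). Chodl, a membrane lectin, had a difference of -3.24 (SE 0.43, adjusted p 0.00862), Cldn11, a tight junction protein, of -2.96 (SE 0.28, adjusted p 0.00393), and Nell1, a secreted glycoprotein, of -3.16 (SE 0.22, adjusted p 0.00227). The Vehicle difference of Nell1 was -1.67 (adjusted p 0.189), and the departure between the 2 was not called (adjusted p 0.0876).

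Of 39 collagens, laminins and elastic fibre genes, 15 were lower and 1 higher at 18 h, with a median of -0.56 (-0.08 in Vehicle). Col13a1, a membrane-spanning collagen, measured 11.07, 11.41, 11.64 and 11.62 at 2 h and 9.44, 9.45, 8.78 and 9.58 at 18 h, a difference of -2.12 (SE 0.21, adjusted p 0.00435). Vehicle rats measured 11.06 to 11.60. Col4a5, a basement membrane chain, fell by 1.14 (adjusted p 0.00821) and Lama3, a laminin chain of epithelial anchorage, by 1.11 (adjusted p 0.00595). The 1 rise was Efemp2, which helps assemble elastic fibres (1.29, SE 0.18, adjusted p 0.00979). The number of falls in this list was unsteady, at 5 without 2-h rat 3, 6 without 2-h rat 4 and 7 without 18-h rat 1 or 18-h rat 3, and it was 7 when arrays were median centred.

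Matricellular proteins, which sit in the matrix and signal to cells, split into 8 lower and 3 higher of 27. Spon2, a pattern-recognition matrix protein, measured from 11 in 2-h rat 1 to 12.30 in 2-h rat 4 and 8.57, 8.45, 8.53 and 8.09 in the 18-h rats. The difference was -3.43 (SE 0.30, adjusted p 0.00319), beside 0.05 in Vehicle. Mamdc2, a secreted proteoglycan, went from 9.49 to 10.39 at 2 h to 5.81 to 6.96 at 18 h (-3.65, SE 0.30, adjusted p 0.00271). Fbln2, Mfap5 and Fbln5, which bind elastic fibres and microfibrils, fell by 1.83 (adjusted p 0.00758), 1.71 (adjusted p 0.00262) and 1.43 (adjusted p 0.00787). Fbln5 had -0.6 in Vehicle, and its departure from Vehicle was not called (adjusted p 0.0871). Tnc, tenascin C of injured tissue, measured 9.09, 9.62, 10.34 and 10.62 at 2 h and 11.66, 12.20, 12.04 and 12.01 at 18 h. It rose by 2.06 (SE 0.34, adjusted p 0.0174) while Vehicle lungs had -1.35 (adjusted p 0.194), and the departure between the 2 was 3.41 (adjusted p 0.000369). Lgals3, a galectin of macrophages, rose by 0.60 (adjusted p 0.00866). Lgals3 lost its call in 4 runs with 1 rat left out and Tnc in 2 (adjusted p up to 0.0527), and the list had 5 falls without 2-h rat 3 or 4 or 18-h rat 3 or 4 and 1 rise without 2-h rat 1 or any 18-h rat.

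Timp1, the inhibitor of matrix metalloproteinases, had the smallest adjusted p of all. It measured 11.44, 11.48, 11.57 and 11.44 at 2 h and 13.89, 14.17, 14.11 and 14.16 at 18 h, a difference of 2.60 (SE 0.07, adjusted p 0.000166), and the Vehicle rats lay between 10.60 and 11.38. Of 30 metalloproteinases and inhibitors 4 were higher and 4 lower. The membrane metalloproteinase Mmp15 and the membrane inhibitor Reck fell by 1.37 (adjusted p 0.00706) and 1.35 (adjusted p 0.0076). The aggrecanases Adamts4 (named after its values were seen) and Adamts5 rose by 1.38 (adjusted p 0.0255) and 1.0 (adjusted p 0.0252), and each lost its call in 5 of 8 runs with 1 rat left out. Both counts in the list went to 1 or 2 in several of these runs, the lowest count of rises being 1 without 2-h rat 3 or 18-h rat 3.

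Of 24 immediate early transcription factors 3 were lower and 1 higher at 18 h of Severe PE, with a median of -0.25, whereas the Vehicle median was 0.58. For 8 of the 24 the Severe PE difference was below that of Vehicle and for 0 above it. Atf3, a stress-induced transcription factor, measured 10.57, 10.89, 10.38 and 10.83 at 2 h and 9.01, 9.42, 9.93 and 9.47 at 18 h. All 8 Severe PE rats were above the 6 Vehicle rats (7.72 to 8.64), so the 18-h Severe PE rats were lower than the 2-h ones and still above Vehicle. The difference was -1.21 (SE 0.21, adjusted p 0.0196). Zfp36, which destabilises cytokine messenger RNAs, fell by 1.06 (SE 0.16, adjusted p 0.0137), to 11.85 to 12.37, a range that overlapped that of 18-h Vehicle (11.43 to 12.30). Nr4a3, a nuclear receptor, fell by 0.73 (adjusted p 0.0411). Maff rose by 0.96 (adjusted p 0.0358), and its Vehicle difference was 1.1 (adjusted p 0.284). Gadd45b, a stress-induced feedback gene, fell by 1.25 (SE 0.16, adjusted p 0.0085), Cish, a feedback inhibitor of cytokine receptors, by 1.64 (SE 0.27, adjusted p 0.0166), Spry1 by 0.62 (adjusted p 0.0387) and the cytokine Il1a by 0.84 (adjusted p 0.0472). MAP kinase feedback genes had 2 lower and 0 higher of 18, with a median of -0.18. Cytokine and feedback genes had 2 lower and 0 higher of 27, with a median of 0.05 and 15 positive differences. Of all genes 3.77% were lower and 4.86% higher. At an unadjusted p (limma) under 0.05 the cytokine list held 8 rises and 6 falls. With 1 rat left out Atf3 lost its call in 3 of 8 runs, Maff in 6, Spry1 and Il1a in 7 and Nr4a3 in 8, and 1 fall of the transcription factor list was called without 2-h rat 2 or 2-h rat 4.

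The cyclic AMP response element of early genes, TGACGTCA, was found in the windows of 3 of 16 members (Ier2, Jund and Maff) and of 549 of 27457 genes in all (2%).

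Hspa1a, the inducible cytosolic chaperone, was 1 of 14 genes whose Severe PE difference departed from that of Mild PE. It measured 13.28, 13.60, 12.55 and 13.01 at 2 h and 11.22, 10.73, 10.43 and 10.61 at 18 h. It fell by 2.36 (SE 0.26, adjusted p 0.00587), while Vehicle rats measured 10.29 to 10.64 at 2 h and 10.83 to 11.50 at 18 h. The Mild PE difference was -0.29, and the Severe PE difference departed from it by -2.08 (adjusted p 0.0165). The other calls among 26 heat shock genes were Dnajb1 (-0.99, SE 0.13, adjusted p 0.0085), a cochaperone, Bag3 (-0.59, SE 0.12, adjusted p 0.0301), which hands clients to autophagy, and Hspb6 (-1.14, SE 0.21, adjusted p 0.0219), a small heat shock protein of muscle. Dnajb1 also departed from Mild PE, where its difference was 0.34, by -1.33 (adjusted p 0.000808). Bag3 and Hspb6 lost their calls in 7 and 5 of 8 runs with 1 rat left out, and the list had 2 or 3 falls in the 8 runs (2 without 2-h rat 4, 18-h rat 3 or 18-h rat 4) and 2 rises without 2-h rat 1. With median centring it had 4 rises.

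Rsrp1, a nuclear protein rich in arginine and serine, had the largest departure from Mild PE among those 14 genes. It measured 12.68, 12.73, 12.96 and 13.12 in the 2-h and 11.52, 10.97, 11.39 and 10.97 in the 18-h Severe PE rats, a difference of -1.66 (SE 0.17, adjusted p 0.00451). The Mild PE difference was 0.52 and the Vehicle difference 0.51, and each 2-h Severe PE rat lay above every rat of the other groups. The departure from Mild PE was -2.18 (adjusted p 0.00107). Srsf5, a splicing factor, departed in the opposite direction, rising by 0.62 (adjusted p 0.0293) in Severe PE beside -0.56 in Mild PE, a departure of 1.19 (adjusted p 0.0161). Marchf7, a ubiquitin ligase, departed by 1.33 (adjusted p 0.0356) and Fasn, fatty acid synthase, by 0.59 (adjusted p 0.0419), although neither passed in Severe PE alone (0.63, adjusted p 0.104, and 0.34, adjusted p 0.0552). Banp, a chromatin-binding protein, and the homeobox gene Msx1 departed by -1.52 (adjusted p 0.0242) and -1.43 (adjusted p 0.0161).

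Clock genes are known to cycle over the day, and the hour at which lungs were taken is not given in the sources used here. Of 21 measured, 5 were lower and 0 higher at 18 h. Nr1d1, a repressor in the clock loop, measured 8.78, 8.16, 9.36 and 11.36 at 2 h and 5.82, 6.60, 6.61 and 6.58 at 18 h. In Vehicle it measured 10.17, 10.18 and 10.50 at 2 h and 8.27, 7.76 and 8.60 at 18 h, so the groups did not overlap in either treatment. The differences were -3.01 (SE 0.67, adjusted p 0.0404) in Severe PE and -2.07 (adjusted p 0.162) in Vehicle, and they departed by -0.94 (adjusted p 0.691). Its relative Nr1d2 had -2.23 (SE 0.31, adjusted p 0.0103) in Severe PE and -1.92 (adjusted p 0.202) in Vehicle. Npas2 (-0.73, adjusted p 0.00979) and the output factors Tef (-1.16, adjusted p 0.0331) and Hlf (-1.07, adjusted p 0.0331) had Vehicle differences between -0.08 and -0.03, and their departures from Vehicle were not called (adjusted p 0.0618 to 0.115). Nr1d1 lost its call in 6 runs with 1 rat left out and Tef and Hlf in 5, and the list had 2 calls without 18-h rat 1 or 18-h rat 2 and 3 without 2-h rat 2 or 3 or 18-h rat 3 or 4. The E-box CACGTG through which clock factors bind was found in the windows of 4 of 18 members (Bhlhe40, Bhlhe41, Nr1d1 and Tef) and of 7.08% of all genes.

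**Figure D4:**
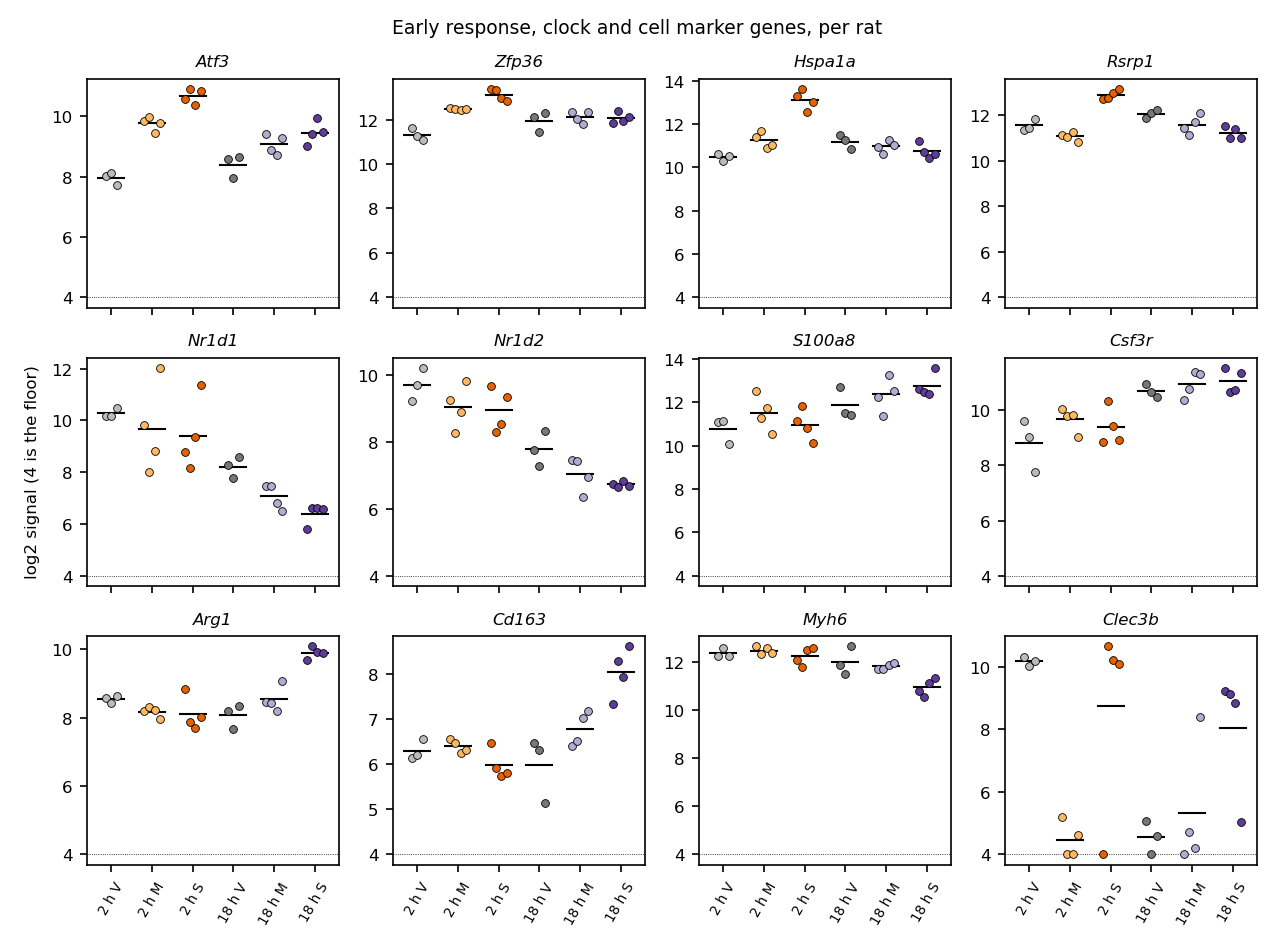
Normalised log2 signal of 12 genes in every rat (V, Vehicle; M, Mild PE; S, Severe PE), with bars at the group means. Hspa1a and Rsrp1 are high in the 2-h Severe PE rats (12.55 to 13.60 and 12.68 to 13.12), Nr1d1 and Nr1d2 are lower at 18 h in Vehicle as in both PE doses, Arg1 and Cd163 are high in the 18-h Severe PE rats, and Clec3b takes either a high level (8.40 to 10.65) or one from the floor to 5.20.

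Neutrophil markers had the highest list median, 1.38, with 6 of 15 called higher and 0 lower, but only Lcn2 rose more than in Vehicle. S100a8, a calcium-binding protein of neutrophils, measured 11.12, 11.81, 10.83 and 10.14 at 2 h and 12.61, 12.48, 12.38 and 13.59 at 18 h. In Vehicle it measured 11.09, 11.12 and 10.09 at 2 h and 12.70, 11.53 and 11.41 at 18 h, without overlap as well. The Severe PE difference was 1.79 (SE 0.42, adjusted p 0.0452) and the Vehicle difference 1.11 (adjusted p 0.361). Csf3r, the receptor for granulocyte growth factor, rose by 1.68 (adjusted p 0.0432) beside 1.89 (adjusted p 0.244) in Vehicle, Pglyrp1 by 2.19 (adjusted p 0.0434) beside 1.63 (adjusted p 0.284), and S100a9 by 1.38 (adjusted p 0.044) beside 1.05 (adjusted p 0.295). The summed linear signal of the 15 markers was 17465 to 34657 at 2 h and 57044 to 76147 at 18 h of Severe PE, and 17430 to 23352 and 27150 to 35388 in Vehicle. The sum includes the bright Lcn2, which measured 14.68 to 14.79 in 18-h Severe PE and 11.06 to 13.04 in 18-h Vehicle. It therefore does not show a rise shared by the 15 markers. In whole tissue, fewer cells of a type and less RNA per cell cannot be told apart, and neither can more cells and more RNA. These calls were weak: Csf3r, Pglyrp1, S100a9 and S100a8 each lost theirs in 7 of 8 runs with 1 rat left out (adjusted p up to 0.106), and the list had 1 call without 2-h rat 3 or 4 or 18-h rat 1, 3 or 4 and 2 without 2-h rat 1 or 18-h rat 2.

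Macrophage genes rose in 7 of 25, with 0 lower and a median of 0.68 beside 0.17 in Vehicle. Arg1, arginase, measured 8.82, 7.87, 7.70 and 8.02 at 2 h and 9.68, 10.08, 9.93 and 9.90 at 18 h, a difference of 1.80 (SE 0.25, adjusted p 0.00968). The Vehicle difference was -0.48, and the 2 departed by 2.27 (adjusted p 0.000929). Cd163, the hemoglobin scavenger receptor, measured 5.73 to 6.47 at 2 h and 7.35 to 8.62 at 18 h (2.07, SE 0.30, adjusted p 0.0116), and departed from Vehicle by 2.40 (adjusted p 0.00441). Gpnmb, a lysosomal glycoprotein, rose by 0.95 (SE 0.13, adjusted p 0.0107) and the lysosomal Cd63 by 0.65 (SE 0.08, adjusted p 0.00766). Itgam, an integrin of myeloid cells, rose by 2.16 (SE 0.28, adjusted p 0.0086), with 1 of 3 Vehicle rats at 18 h listed at the floor. The summed signal of the 25 markers was 80932 to 99487 at 2 h and 103167 to 120986 at 18 h of Severe PE. Whether the acute phase, metal and lysosomal genes changed in these cells or in others was not tested.

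Markers of the resident lung cells had more calls lower than higher. Alveolar type II markers had 0 calls of 13 by limma (6 at an unadjusted p under 0.05), but 2 rises and 1 fall without 2-h rat 1, and a median of 0.02, and Sftpc a difference of -0.12 (SE 0.08, adjusted p 0.418), Ctsh one of 0.53 (adjusted p 0.0142) that was under 1.5-fold. Of 9 alveolar type I markers, none had a positive difference and 2 were called (1 without 2-h rat 2, 3 or 4 or 18-h rat 1), with a median of -0.64 beside -0.19 in Vehicle. The 2 called were Cav1 and Vegfa, and Vegfa is described with the vascular genes. Cav1, the caveolar protein, which endothelium also makes, fell by 0.86 (SE 0.13, adjusted p 0.0137), and Ager had -0.44 (SE 0.05, adjusted p 0.00595), under 1.5-fold. The Vehicle difference of Cav1 was -0.28, and the departure of -0.58 was under 1.5-fold and not called. Among 18 endothelial markers 4 were lower and 2 higher. Plvap, of capillary diaphragms, measured 13.71, 13.91, 14.04 and 13.95 at 2 h and 13.08, 12.97, 12.81 and 12.61 at 18 h, a difference of -1.03 (SE 0.12, adjusted p 0.00661) beside 0.01 in Vehicle. Car4, a carbonic anhydrase of lung capillaries, fell by 1.71 (SE 0.32, adjusted p 0.0251) and Emcn, a mucin of capillaries and veins, by 1.42 (SE 0.19, adjusted p 0.00859), while Egfl7 rose by 0.87 (SE 0.12, adjusted p 0.0101). The Vehicle difference of Emcn was -0.81, and the departure from it was not called (adjusted p 0.28). Vwf, of the clotting factor stores of larger vessels, had -0.39 (adjusted p 0.0466), under 1.5-fold. Car4 lost its call in 5 runs with 1 rat left out, and the endothelial falls numbered 2 without 2-h rat 2, 3 or 4 or 18-h rat 1 or 3.

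Fgfr4, a fibroblast growth factor receptor, measured 9.78, 10.29, 10.84 and 10.84 at 2 h and 8.32, 8.55, 7.82 and 7.36 at 18 h, the largest fall (-2.42, SE 0.35, adjusted p 0.0111) among the 5 of 15 fibroblast markers that were lower. The fibroblast median was -0.45, beside -0.11 in Vehicle, and Fgfr4 was the 1 of 15 that departed from Vehicle (adjusted p 0.00142). Of smooth muscle and contractile genes 4 of 17 were lower and 1 higher, the rise not being called in any of the 8 runs with 1 rat left out. Their median was -0.23 in Severe PE and -0.3 in Vehicle, and 1 of the 17 departed from Vehicle, in the negative direction. Itga8, an integrin of contractile cells, fell by 1.27 (SE 0.15, adjusted p 0.00646), beside -1.55 (adjusted p 0.19) in Vehicle, and Mylk, myosin light chain kinase, by 0.92 (SE 0.16, adjusted p 0.021), which lost its call in 4 of 8 runs. Fibroblast falls numbered 1 without 2-h rat 3 or 4 or 18-h rat 3 and with median centring, 2 without 18-h rat 1 or 4 and 3 without further normalization, and smooth muscle falls 2 without 2-h rat 2, 3 or 4 or 18-h rat 1 or 3.

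Mast cell and heart muscle markers were lower too. Mcpt1, a mast cell protease, measured 8.96, 7.0, 8.40 and 8.43 at 2 h and 4.13, 6.83, 4.83 and 5.11 at 18 h, where rat 2 came close to the lowest 2-h rat. Its difference was -2.97 (SE 0.66, adjusted p 0.0408), and that of Hdc, which makes histamine, -1.12 (SE 0.22, adjusted p 0.0281). In Vehicle they had 0.17 and 0.37. The departure from Vehicle was called for Hdc (adjusted p 0.0375) but not for Mcpt1 (adjusted p 0.0667). All 13 mast cell markers had a difference below 0, 2 of them called, and each of these 2 lost its call in 6 of 8 runs with 1 rat left out (adjusted p up to 0.102). Of 17 cardiac and skeletal muscle markers 4 were lower, with a median of -0.88. Myl2, a myosin light chain of the ventricle outside that list, measured 8.20, 7.44, 6.76 and 7.79 at 2 h and was at the floor in 3 of 4 rats at 18 h, with 6.02 in rat 3 (-3.04, SE 0.55, adjusted p 0.0224). Myh6, of the atrial heart muscle that extends into rodent pulmonary veins, measured 11.76 to 12.57 at 2 h and 10.53 to 11.30 at 18 h (-1.30, SE 0.24, adjusted p 0.0232). Mb, myoglobin, Tnnt2 and Tnni3, troponins, had -1.26 (adjusted p 0.00945), -1.43 (adjusted p 0.0196) and -1.21 (adjusted p 0.0365). In Vehicle the muscle list had a median of -0.4. The Vehicle differences were -0.84 for Mb, -0.51 for Tnnt2, -0.41 for Tnni3, -0.35 for Myh6 and -0.76 for Myl2. Under the call rule 0 of the 17 markers departed from Vehicle, and neither did Myl2 (adjusted p 0.139). The summed muscle signal was 13220 to 22902 at 2 h and 8410 to 10616 at 18 h of Severe PE, and 9650 to 22877 in 18-h Vehicle, and what share of vein or heart muscle each piece of tissue held was not tested. With 1 rat left out Myl2 and Myh6 lost their calls in 5 of 8 runs, Tnni3 in 7 and Tnnt2 in 2, and the list had 1 call without 2-h rat 3 or 4 and 2 without 18-h rat 1, 2 or 3.

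Of 32 VEGF, angiopoietin, endothelin and nitric oxide genes 2 were higher, near the 4.86% of all genes, and 6 lower, beside 3.77% of all genes. The median was -0.08 in Severe PE and -0.09 in Vehicle, and 1 member departed from Vehicle in the positive and 3 in the negative direction. Nos3, endothelial nitric oxide synthase, measured 7.20, 7.76, 7.96 and 8.11 at 2 h and 9.41, 9.17, 8.76 and 9.48 at 18 h, a rise of 1.45 (SE 0.24, adjusted p 0.0176) beside 0.81 (adjusted p 0.272) in Vehicle. The subunits of the receptor for nitric oxide, Gucy1b1 and Gucy1a1, fell by 0.93 (SE 0.11, adjusted p 0.00673) and 0.81 (SE 0.12, adjusted p 0.0116), beside -0.78 and -0.51 in Vehicle. Vegfa, the vascular growth factor, measured 11.95 to 12.11 at 2 h and 10.48 to 11.43 at 18 h (-1.02, SE 0.19, adjusted p 0.0252). Of 24 prostanoid and leukotriene genes 2 were higher and 2 lower, beside 4.86% and 3.77% of all genes. Their median was 0.05, beside 0.16 in Vehicle. Ptgis, prostacyclin synthase, rose by 1.18 (SE 0.15, adjusted p 0.00822), whereas Tbxa2r, the thromboxane receptor, fell by 1.48 (SE 0.28, adjusted p 0.0243) and Hpgd, which inactivates prostaglandins, by 1.28 (SE 0.20, adjusted p 0.0149). Ptgis had 0.5 and Hpgd -0.47 in Vehicle, and neither departure from Vehicle was called (adjusted p 0.0783 and 0.222). Vegfa and Tbxa2r lost their calls in 5 and 6 of 8 runs with 1 rat left out and Nos3 in 1 (adjusted p 0.0503), and the list of vascular regulators had 2 falls without 2-h rat 2, 3 or 4 or 18-h rat 1 or 3.

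On the side of coagulation and adhesion, Procr, the endothelial protein C receptor, measured 9.47, 10.03, 10.17 and 9.86 at 2 h and 11.51, 11.35, 11.46 and 11.38 at 18 h. The 18-h rats lay close together, and the rise was 1.54 (SE 0.15, adjusted p 0.00406). A2m, a plasma protease inhibitor, rose by 2.24 (SE 0.38, adjusted p 0.0186), and these were the 2 of 28 coagulation genes that passed. Of all genes 4.86% were called higher. Selp, the P-selectin of activated endothelium and platelets, measured 7.04 to 8.21 at 2 h and 9.26 to 10.32 at 18 h (2.23, SE 0.38, adjusted p 0.0185) by 1 of its 2 probe sets, and the other was not called. The Vehicle difference of Selp was 0.85, and the departure from it was not called (adjusted p 0.137). Of 38 BMP and TGF-beta genes 2 were higher and 2 lower, near the shares of all genes, with a median of -0.06. Inhba, a chain of activin, and Fst, which binds activin, rose by 1.83 (SE 0.22, adjusted p 0.00673) and 1.51 (SE 0.25, adjusted p 0.0181), while Bmp6 fell by 0.76 (SE 0.16, adjusted p 0.0337). The other of 2 Inhba probe sets had -0.03 and was not called, and the 4 Bmp6 probe sets ranged from -1.30 to 0.86, with 2 called lower. A2m, Selp and Fst lost their calls in 2 of 8 runs with 1 rat left out and Bmp6 in 6.

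**Figure D5:**
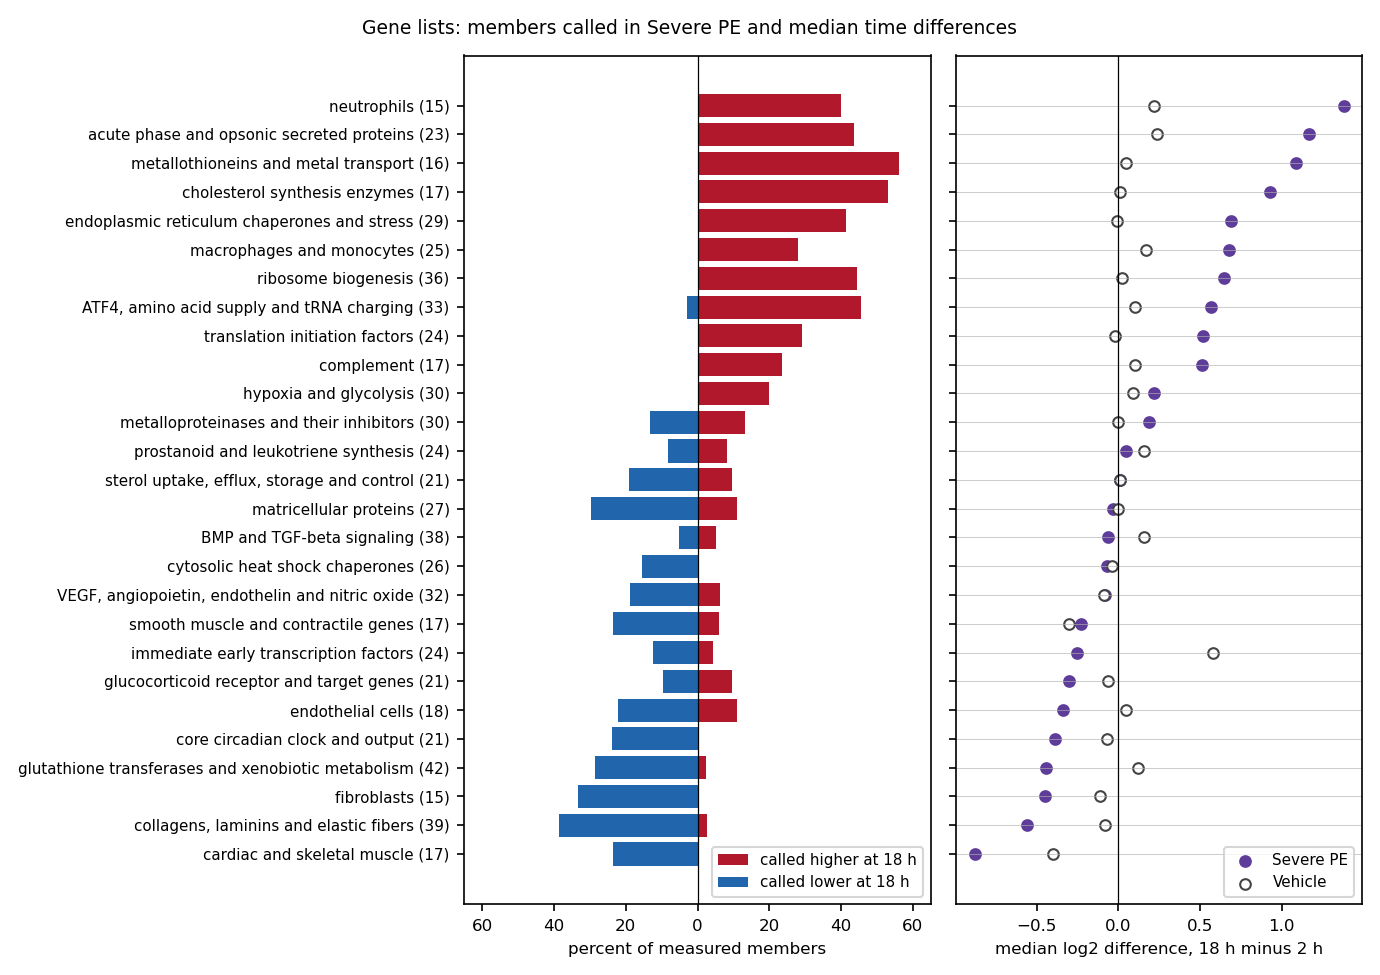
For each list with at least 4 called members, the left panel gives the percentage of measured members (their number in parentheses) called higher (red) or lower (blue) at 18 h of Severe PE, and the right panel the median log2 difference in Severe PE (filled) and Vehicle (open). Neutrophil (1.38), acute phase (1.17) and metal (1.09) genes lie at the top and muscle (-0.88) and matrix (-0.56) genes at the bottom, and the Vehicle medians lie between -0.40 and 0.58.

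Complement genes were higher for 4 of 17 and lower for 0, with C1qb and C1qc, chains of the first complement component, at 1.10 (adjusted p 0.0162) and 0.95 (adjusted p 0.0309). Their count was 1 or 2 in the runs without 2-h rat 2, 3 or 4 or any 18-h rat. Several other inflammatory lists held few calls between the times, read against 4.86% of all genes higher and 3.77% lower. Chemokines had 0 higher and 1 lower of 28: Cxcl12, the constitutive chemokine of stroma, fell by 0.62 (SE 0.13, adjusted p 0.0342), beside -0.60 in Vehicle, and lost its call in 7 of 8 runs with 1 rat left out, and its 3 probe sets ranged from -1.23 to 0.46. Chemokine rises numbered 2 without 18-h rat 4, 1 with a floor of 64, and 3 with median centring, without dim probe sets, with the mean of each gene's probe sets or with 1 fit on all 22 arrays. Ccl22, which attracts regulatory T cells, measured 4.83 to 6.08 at 2 h and 6.45 to 7.58 at 18 h, and its difference of 1.44 (SE 0.35, adjusted p 0.0512) missed the threshold, while the other of its 2 probe sets was called higher, at 2.41. NF-kB subunits and inhibitors had 0 calls of 13 by limma (5 at an unadjusted p under 0.05, and 1 fall without 2-h rat 4 or 18-h rat 2 or 4), and Nfkbia, the inhibitor induced by that factor, had -0.56 (SE 0.10, adjusted p 0.0191), under 1.5-fold. Interferon-stimulated genes had 2 lower of 25, Ifi27 (-0.85, SE 0.10, adjusted p 0.00699) and Bst2 (-0.90, SE 0.17, adjusted p 0.027), the latter lost in 5 runs. Their Vehicle differences were -0.45 and -0.36, and neither departure from Vehicle was called (adjusted p 0.25 and 0.262). The lists of antigen presentation, lymphocytes, natural killer cells, red cells with platelets, mesothelium and liver had 0 calls by limma, and at an unadjusted p under 0.05 they held 6 of 20, 2 of 20, 3 of 15, 0 of 11, 3 of 8 and 3 of 13 members in that order. The methods' t-test gave 0 calls in each of these lists, after Benjamini-Hochberg adjustment. With 1 rat left out, limma called 1 antigen presentation rise without 2-h rat 2 or 2-h rat 3, 1 mesothelial rise without 2-h rat 2, 1 natural killer fall without 2-h rat 1, and 1 rise and 1 fall of the liver list without 18-h rat 4. Antigen presentation had 2 rises with median centring. For these lists a miss does not show that the levels were equal, since 4 rats against 4 limit what can pass.

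The genes with the largest differences between the Vehicle times included some with a high and a low level among the Severe PE rats. Clec3b, tetranectin, measured 10.31, 10.02 and 10.18 in 2-h Vehicle rats and 5.05, the floor and 4.58 in 18-h ones, a difference of -5.63 (adjusted p 0.0506). In Severe PE 2-h rat 1 was at the floor, the others measured 10.65, 10.21 and 10.09, and the 18-h rats 9.22, 9.14, 8.83 and 5.03, so single rats of both times sat at the low level. Arpc4, a subunit of an actin-nucleating complex, likewise took a high level (11.43 to 12.20) or a low one (8.78 to 9.73) in the Severe PE and Vehicle rats, with 3 low among the 8 Severe PE rats and all 3 of the 18-h Vehicle rats low. What set these levels was not tested. The other leading Vehicle differences were 2.45 for Gpr135 (adjusted p 0.162), 2.20 for Tmem44 (adjusted p 0.213), 2.09 for Prodh (adjusted p 0.194), -2.19 for Itgb1bp2 (adjusted p 0.213) and -2.12 for Cmya5 (adjusted p 0.163), none of them called. Crocc, a protein of the ciliary rootlet, fell by 1.82 (adjusted p 0.0292) in Severe PE beside 1.40 (adjusted p 0.455) in Vehicle, and lost its Severe PE call in 7 of 8 runs with 1 rat left out.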

How the data were processed

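Each rat contributed 1 expression array. The authors deposited linear signal intensities per probe set that share 1 trimmed mean over the 22 arrays. The software that made them is not given in the sources used here, and they are not the GC-RMA values of the study's methods. Signals were raised to at least 16, log2 transformed and quantile normalised over 22 arrays, which forces equal distributions on the groups. Of 31099 probe sets, 57 controls were left out; 20826 of the 31042 tested had 1 gene symbol, 436 several and 9780 none. Each of 14217 genes was taken by its probe set of highest mean. Per array, 13.6 to 17.3% of signals were at the floor.

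The 8 Severe PE or 6 Vehicle arrays were compared by limma (version 3.58.1, R 4.3.3), and departures from Vehicle or Mild PE were contrasts in 1 fit of 6 groups. These comparisons share arrays. No label names a culture, litter or batch, so p-values measure the spread between these rats. The fits were tested on simulated data. The 52 gene lists (16 of cell type markers) and the groups were chosen with earlier results of these data known. Named genes were the 12 largest called rises and falls, up to 5 members per list by adjusted p and, of cell types, 3 by signal, the 6 largest departures from Vehicle and the 4 from Mild PE each way, and the 4 largest Vehicle differences each way at an unadjusted p under 0.01. Genes outside this rule are marked where named. Promoter windows of 300 bases came from RefSeq (GRCr8).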

Additional observations from a re-analysis of the deposited data

Results flagged for a closer look

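In 20 of 342 sets of 4 Severe PE rats, 1 rat lay farther from the other 3 than Dixon's test allows. Chance marks about 1 in 20 such sets, and what set these values was not tested. At 2 h, rat 1 measured 10.68 for Spry1 (the others 11.16 to 11.23), 4.83 for Ccl22 (5.87 to 6.08), 12.77 for Eno1 (13.07 to 13.09) and 14.04 for Ifi27 (14.19 to 14.22), and it was listed at the floor of 4 for Clec3b (10.09 to 10.65). The array of this rat also had the highest 3′ minus 5′ signal of Gapdh in its group. Rat 2 measured 10.81 for Cish (10.25 to 10.34), and rat 4 measured 9.60 for Dnajb11 (9.87 to 9.92) and 12.45 for Pdia6 (12.64 to 12.66).

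At 18 h, rat 1 measured 5.82 for Nr1d1 (6.58 to 6.61), 9.83 for Cyp27a1 (9.01 to 9.15) and 13.30 for Sdf2l1 (12.97 to 13.02). Rat 2 measured 9.78 for Gucy1b1 (9.34 to 9.38) and 8.90 for Arpc4 (11.75 to 12.20). Rat 3 measured 6.02 for Myl2, at the floor in the others, 12 for Mybbp1a (11.81 to 11.82), 8.71 for Fbln5 (8.99 to 9.04) and 7.59 for Prodh (8.63 to 8.84). Rat 4 measured 8.34 for Mb (8.72 to 8.75), 5.03 for Clec3b (8.83 to 9.22) and 4.74 for Cmya5, at the floor in the others.

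The change between the times differed from that of Vehicle lungs for 1778 probe sets by limma, tested as a contrast of the 2 differences. On the log2 scale the difference between the 2 was 5.23 for Serpina3n, 4.17 for Acot1, 3.55 for Orm1, 3.41 for Tnc, 3.36 for Mt2A and 3.20 for Saa3 in the positive direction. In the negative direction it was -4.88 for Cyp1a1, -3.91 for Aox1, -3.71 for Chodl, -3.48 for Spon2, -3.23 for Crocc and -3.17 for Hsd11b2. It differed from that of Mild PE for 25 probe sets, among them Marchf7 (1.33), Srsf5 (1.19), Fasn (0.59), Rsrp1 (-2.18), Hspa1a (-2.08), Banp (-1.52) and Msx1 (-1.43).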

How the results depend on the processing

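The count of Severe PE calls (1956 probe sets) was 1525 to 2448 with median centring, no further normalization, a floor of 64, a variance trend, a filter on dim probe sets or without the 4 arrays of low 5′ signal (1 each from 2-h Severe PE, 18-h Mild PE, 2-h Vehicle and 18-h Vehicle). It was 3021 with 1 fit on all 22 arrays and 1275 by the methods' t-test, and 1069 to 1986 with 1 rat left out. The Vehicle count of 5 was 2 with median centring, which moved the median of all probe sets to 0.17, 3 with a floor of 64, 9 with a variance trend, 1 with the dim filter, 0 without the 4 arrays (3667 at an unadjusted p under 0.05), 833 with 1 fit on all 22 arrays, where Vehicle borrows the spread of the other groups, and 0 to 1 with 1 rat left out. The difference from Vehicle (1778) was 974 in the 4 groups alone and 1242 to 3085 with 1 rat left out. The difference from Mild PE (25) was 15 with median centring, 40 without further normalization, 55 with a floor of 64, 167 without the 4 arrays and 14 to 53 with 1 rat left out. Rats with the same replicate number did not deviate together (r -0.16 to 0.05 in Severe PE, -0.06 to 0.09 in Vehicle), so the numbers do not pair them. With the replicate block the counts were 0 in Severe PE (limma, smallest adjusted p 0.0624, 6379 at an unadjusted p under 0.05), 0 in Vehicle (5063), 1458 against Vehicle and 21 against Mild PE. Each replicate number had its best match in its own number for 1 of 4 Severe PE and 1 of 3 Vehicle rats. Of 151 named genes called in Severe PE, none changed direction in any setting and 99 kept the call in all 8 runs with 1 rat left out. The block aside, the largest number of calls lost was 44, without 18-h rat 3, and the methods' t-test lost 26. Macrophage rises (7) were 11 with median centring or the dim filter, and neutrophil rises (6) were 1 with a floor of 64 or by the methods' t-test. The cause of these shifts was not tested. Signals near the floor limit the differences of dim genes, which are then understated.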
